A study of Drosophila melanogaster with 4 samples.

Results

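The 10 genes described here encode actins and tubulins, the subunits of actin filaments and microtubules. They are 6 actin genes (*Act5C*, *Act42A*, *Act57B*, *Act79B*, *Act87E* and *Act88F*) and 4 tubulin genes (*alphaTub84B*, *betaTub56D*, *betaTub60D* and *betaTub85D*), taken by name from the 13556 genes that RefSeq names among the transcripts listed. Their level is the FPKM (fragments scaled by transcript length and by the mapped fragments of the library) summed over the RefSeq transcripts of a gene. All 15 member transcripts had an estimate of status OK in all 4 libraries. RNA came from whole larvae of the third instar in 4 rRNA-depleted libraries, 2 of wildtype (Oregon R) and 2 of HP1a mutant larvae that carried Su(var)205[04] over Su(var)205[05], alleles of the HP1a gene. The mutant larvae were the GFP-negative offspring of parents that each carried an allele over a GFP balancer, so the genotypes also differ in the stocks they came from. Stocks were kept at 25°C and 70% humidity. The age within the third instar, the sex and the number of larvae per sample are not given in these sources.

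Actin polymerizes into filaments that make up the cell cortex, the contractile ring and, in muscle, the thin filaments of the sarcomere. In *Drosophila*, *Act5C* and *Act42A* encode the cytoplasmic actins, *Act57B* and *Act87E* are the main actins of larval muscle, and *Act79B* and *Act88F* serve adult muscles, *Act88F* that of flight. Tubulin forms dimers of an alpha and a beta chain, from which microtubules are built. *alphaTub84B* and *betaTub56D* are broadly expressed, *betaTub60D* is known from differentiating muscle and a few other tissues, and *betaTub85D* is the beta chain of the male germline, where it builds the meiotic spindle and the sperm tail. The members thus contrast cytoplasmic, muscle and testis forms of the same proteins.

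Read as counting error alone, the bounds that Cufflinks gave for each FPKM imply between 7329659 and 7663636 fragments on transcripts per library. The targeted gene, *Su(var)205*, stood at 125 and 137 FPKM in wildtype larvae against 27.8 and 20.1 in mutant larvae. Most genes were lower in the mutant libraries. Among the 9438 genes tested (mean log2(FPKM + 1) above 1.4, status OK in all 4 libraries), the median log2 fold change was -0.84, and 41.4% passed an FDR of 0.01 in limma's moderated test, 34.4% lower and 6.98% higher in the mutant. After rescaling, in which the libraries were brought to one median FPKM, the median was -0.02, and 22.5% passed, 945 genes lower and 1177 higher. Without wildtype replicate 1 or without wildtype replicate 2, 0 genes passed in limma, although 4696 and 4597 had an unadjusted p under 0.05. The two-sided p-values below rest on the model, since an exact permutation of 2 libraries against 2 cannot go below p = 0.33, and adjusted p are those of limma over all tested genes.

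Of the 10 members, 9 could be tested, and 5 passed the FDR (against 41.4% of all tested genes). *Act57B* and *Act88F* rose, and *Act42A*, *betaTub60D* and *betaTub85D* fell. *Act5C*, *Act87E*, *alphaTub84B* and *betaTub56D* did not pass, and *Act79B* was too low to test. The median log2 fold change of the 9 was -0.49, beside -0.84 for all tested genes. The HP1a mutant libraries lay apart from the wildtype libraries for all 10 members, below them for 6 and above them for 4. Of all tested genes, 69.1% lay below and 17.3% above without overlap. With the libraries rescaled, *Act57B*, *Act87E* and *Act88F* were called higher, *betaTub60D* and *betaTub85D* lower, and *Act42A* no longer passed. *Act57B*, *Act88F*, *betaTub60D* and *betaTub85D* were thus called under both scalings. They were also called with quantile normalization, which gives the libraries the same distribution of FPKM. There *Act42A* passed and *Act87E* did not (limma adjusted p = 0.0589). Without either wildtype library, 0 of the 9 members passed, and 5 had an unadjusted p under 0.05 each time. The single wildtype library left is then assumed to vary as much as the mutant pair.

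**Figure D1:**
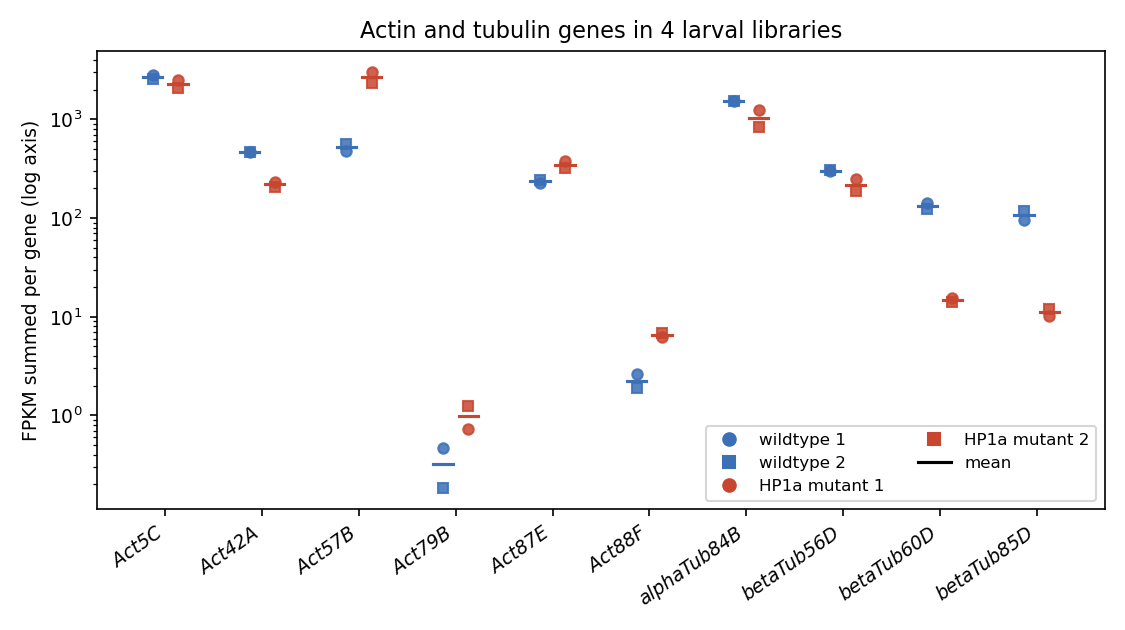
FPKM summed per gene (log axis) of the 10 members in each library, with circles for replicate 1, squares for replicate 2 and a line at the mean of each genotype (n = 2). *Act57B* lies at 483 and 566 in wildtype and at 3057 and 2321 in the HP1a mutant, while *betaTub60D* and *betaTub85D* lie between 95.0 and 141 in wildtype and between 10.1 and 15.5 in the mutant.

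*Act5C* (chromosome X, genome Release 5, 5794897 to 5798823, plus strand), the major cytoplasmic actin, was the most abundant member in wildtype. Its FPKM was 2841 and 2554 in wildtype against 2505 and 2072 in the HP1a mutant. Both mutant libraries lay below both wildtype libraries, but the nearest pair differed by less than the spread within either genotype. The log2 fold change was -0.24 (standard error, SE, 0.19, adjusted p = 0.318), and -0.19 with quantile normalization (adjusted p = 0.303). With the libraries rescaled it was 0.68 (adjusted p = 0.0368). The direction turned on the scaling and no value passed, so that neither a direction nor a change can be read from them.

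*Act42A* (2R, 1901415 to 1903190, minus strand), the other cytoplasmic actin, was lower in the mutant in the FPKM as deposited. It had 463 and 470 FPKM in wildtype against 231 and 208 in the HP1a mutant, with replicates that differed far less than the genotypes. The log2 fold change was -1.09 (SE 0.16, adjusted p = 0.00650). This is close to the change of the median gene, and with the libraries rescaled the value was -0.16 (adjusted p = 0.445). With quantile normalization it was -1.21 and passed (limma adjusted p = 0.00600), so the call turns on how the libraries are scaled. The locus overlaps the end of *Pngl*, a gene for a deglycosylating enzyme, whose overlapping transcript had an FPKM of at most 14.0 in any library. Within a library, *Act5C* exceeded *Act42A* by a factor of 6.14 and 5.43 in wildtype and of 10.8 and 9.96 in the mutant. This ratio does not change when the libraries are rescaled to the same median, though quantile normalization can change it.

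The deposited values divide *Act5C* over 4 transcripts, which share a coding exon and differ in where they start and how far their 3′ end reaches. The transcript that starts inside the gene (5796013 to 5798208) had 1710 and 1303 FPKM in wildtype against 1360 and 1328 in the mutant. That with the outer start and the middle 3′ end (to 5798499) had 961 and 1087 in wildtype against 1094 and 697 in the mutant. The genotypes overlapped for both. The transcript with the longest 3′ end (to 5798823) stood apart from them, with 167 and 162 FPKM in wildtype against 48.9 and 43.9 in the mutant. It made up 5.88% and 6.33% of *Act5C* in wildtype and 1.95% and 2.12% in the mutant. Rescaling the libraries to the same median does not touch this share.

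When the transcripts of all genes were tested singly, as an alternative chosen after the data were seen, the *Act5C* transcript with the longest 3′ end fell, by limma, with a log2 fold change of -1.80 (SE 0.17, adjusted p = 0.00649). In that fit 13.6% of 12955 transcripts passed as lower, and *Act42A* (adjusted p = 0.0119) and *Act88F* (adjusted p = 0.0187) did not pass. The other 3 transcripts of *Act5C* had log2 fold changes between -0.27 and -0.15 and did not pass. The fourth, with the outer start and the shortest 3′ end, stayed between 1.70 and 3.04 FPKM. How Cufflinks divides fragments among transcripts that overlap is an estimate, and the difference between the transcripts was not tested.

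**Figure D2:**
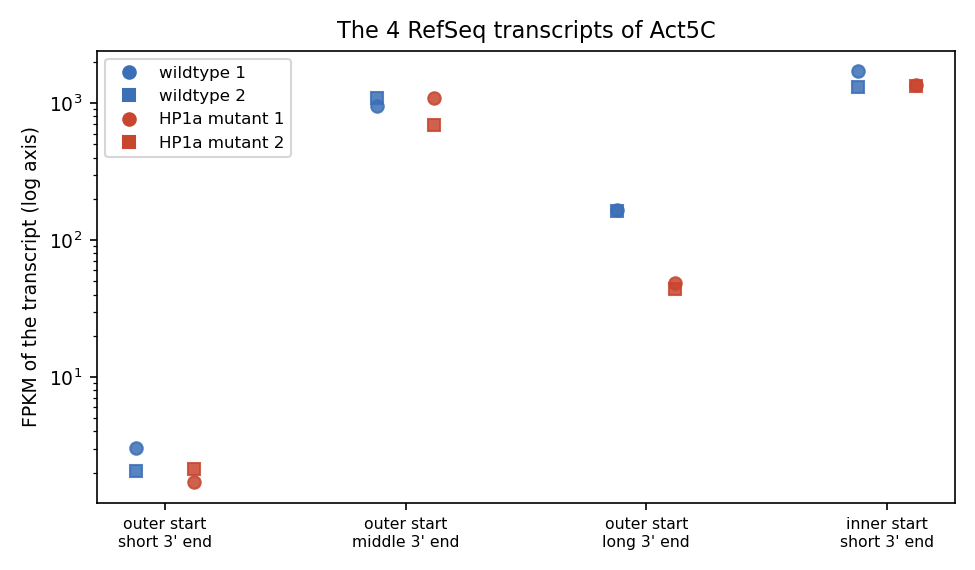
FPKM (log axis) of the 4 RefSeq transcripts of *Act5C* in each library, named by their start and 3′ end. The transcript with the longest 3′ end drops from 167 and 162 to 48.9 and 43.9, while the 2 abundant transcripts overlap between genotypes.

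*Act57B* (2R, 16831533 to 16833945, plus strand), an actin of larval muscle, had the largest rise among the members. Its FPKM was 483 and 566 in wildtype against 3057 and 2321 in the HP1a mutant, and the implied fragments went from 5981 and 7180 to 40961 and 29968. The mutant mean was 5.13 times the wildtype mean. Both mutant libraries lay far above wildtype, though they also differed from each other more than the wildtype libraries did. The log2 fold change was 2.35 (SE 0.22, adjusted p = 0.00290), 3.18 above that of the median gene, and 3.27 with the libraries rescaled (adjusted p = 0.00212). In wildtype its libraries lay far below those of *Act5C*, and in the mutant they overlapped them.

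A gene for a small nucleolar RNA lies within the *Act57B* locus (16833475 to 16833570). In the current annotation (BDGP6) it is on the same strand, in the last exon and past the coding sequence. Its FPKM was 7063 and 11607 in wildtype against 71520 and 51493 in the mutant, so it moved with its host. The fragments behind it, between 100.5 and 1101 per library, were few beside those of *Act57B*. At this place a fragment of the *Act57B* transcript and one of the small RNA cannot be told apart, and FPKM divides by a length that is short for the small RNA.

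*Act87E* (3R, 9251707 to 9253811, plus strand), the other actin of larval muscle, had 229 and 245 FPKM in wildtype against 375 and 323 in the HP1a mutant. The groups did not overlap. Its log2 fold change of 0.55 (SE 0.17) did not pass (adjusted p = 0.0460). With the libraries rescaled it was 1.48 and passed (adjusted p = 0.00440), and with quantile normalization it was 0.48 and did not (adjusted p = 0.0589). Almost all of this came from a single transcript, which held between 97.6% and 99.5% of the gene's FPKM. Within a library, *Act57B* exceeded *Act87E* by a factor of 2.11 and 2.31 in wildtype and of 8.15 and 7.19 in the mutant. The log2 of this ratio was 1.79 higher in the mutant, with SDs between replicates of 0.093 in wildtype and 0.13 in the mutant (n = 2 each).

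*Act88F* (3R, 11265710 to 11267895, plus strand), the actin of the flight muscle, was low in every library. Its FPKM was 2.61 and 1.91 in wildtype against 6.24 and 6.88 in the mutant, on 21.8 to 79.9 implied fragments. It rose with a log2 fold change of 1.22 on the log2(FPKM + 1) scale (SE 0.20, adjusted p = 0.00763), which understates the change of a low gene. The call was lost when HP1a mutant replicate 1 was left out (adjusted p = 0.0150), when replicate 2 was (adjusted p = 0.0212) and with no filter on low values (adjusted p = 0.0107). For every 1000 FPKM of *Act57B* there were 5.39 and 3.38 of *Act88F* in wildtype, and 2.04 and 2.97 in the mutant.

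*Act79B* (3L, 21978331 to 21980290, plus strand), an actin of other adult muscles, was close to absent. Its FPKM was 0.466 and 0.182 in wildtype against 0.732 and 1.25 in the mutant, on 5 and 2 implied fragments against 8.5 and 14. No fold change is given at this depth. The implied fragments of *Act79B* and *Act88F* were not whole in some libraries. The coding sequences of actin genes are alike, and how fragments that match several genes were treated is not stated. The values of the 2 low actin genes are therefore uncertain beside *Act57B*, which was far more abundant. The genes *fln* and *TpnC4*, which serve the flight muscle, were also near 0: *fln* did not exceed 1.05 FPKM in any library, and *TpnC4* was listed at 0 in both wildtype libraries and had 1.15 and 4.24 FPKM in the mutant.

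Summed over the 6 genes, actin came to 4019 and 3837 FPKM in wildtype against 6175 and 4931 in the HP1a mutant. The 4 muscle genes made up 17.8% and 21.2% of this in wildtype and 55.7% and 53.8% in the mutant. For each FPKM of cytoplasmic actin there were 0.216 and 0.269 of muscle actin in wildtype against 1.26 and 1.16 in the mutant. The log2 of this ratio was 2.33 higher in the mutant, a difference many times the SD between replicates (0.22 in wildtype and 0.079 in the mutant, n = 2 each). As a ratio within a library, it does not change when the libraries are rescaled to the same median, though quantile normalization can change it. *Act57B* alone went from 12.0% and 14.7% of actin to 49.5% and 47.1%, while *Act87E* stayed between 5.69% and 6.55%. In whole larvae, more muscle cells, more actin RNA per muscle cell and less RNA from other tissues cannot be told apart.

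**Figure D3:**
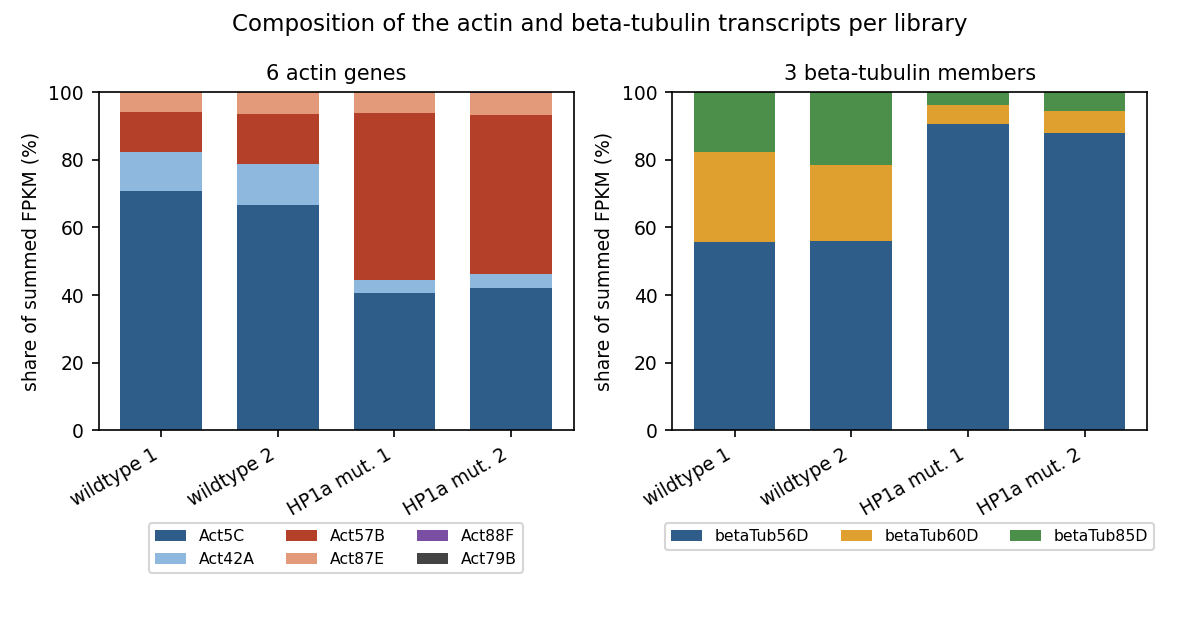
Share of the summed FPKM (%) that each gene takes, in each library, for the 6 actin genes (left) and the 3 beta-tubulin members (right). The muscle actins go from 17.8% and 21.2% in wildtype to 55.7% and 53.8% in the HP1a mutant. *betaTub56D* goes from 55.7% and 55.9% of the beta-tubulin members to 90.6% and 87.8%.

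Of the tubulins, *alphaTub84B* (3R, 2912260 to 2914582, plus strand), the main alpha chain, had 1527 and 1531 FPKM in wildtype against 1254 and 833 in the HP1a mutant. The mutant libraries differed from each other more than the upper of them differed from wildtype. The log2 fold change was -0.58 (SE 0.26, adjusted p = 0.108), and 0.34 with the libraries rescaled (adjusted p = 0.220). Without HP1a mutant replicate 1 it passed, at -0.88 (adjusted p = 0.00652). *alphaTub84D*, which encodes a nearly identical protein, had 38.3 and 29.2 FPKM in wildtype against 18.2 and 10.7 in the mutant, and fragments of the 2 genes could be mistaken for each other.

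*betaTub56D* (2R, 15334824 to 15339122, minus strand), the broadly expressed beta chain, had 298 and 307 FPKM in wildtype against 246 and 188 in the mutant. The groups did not overlap, but the log2 fold change of -0.49 (SE 0.20) did not pass (adjusted p = 0.0956), and it was 0.43 with the libraries rescaled (adjusted p = 0.0933). Without HP1a mutant replicate 1 it passed, at -0.68 (adjusted p = 0.00838). These values rest on 2 of the transcripts at the locus. A pair of transcripts within the same span has no gene in the RefSeq table used here, and the larger of them had 539, 561, 495 and 385 FPKM in wildtype 1, wildtype 2, mutant 1 and mutant 2. With this pair added, *betaTub56D* came to 843 and 874 FPKM in wildtype against 748 and 580 in the mutant, and it still did not pass.

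*alphaTub84B* and *betaTub56D* encode the partners of a dimer. Within a library, *alphaTub84B* exceeded *betaTub56D* by a factor of 5.13 and 4.99 in wildtype and of 5.09 and 4.43 in the mutant. With the unnamed transcripts added, the factor was 1.81 and 1.75 in wildtype against 1.68 and 1.44 in the mutant. The genotypes overlapped in the first ratio and not in the second.

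*betaTub60D* (2R, 20193405 to 20200626, plus strand) fell about as far as *betaTub85D*, and which of them fell further changes with the pseudocount, the scaling and the library left out. Its FPKM was 141 and 123 in wildtype against 15.5 and 14.0 in the HP1a mutant, and its implied fragments were 2666 and 2374 against 315 and 275. The wildtype mean was 8.97 times the mutant mean, and in either genotype the replicates were close. The log2 fold change was -3.08 (SE 0.17, adjusted p = 0.00211), and -2.19 with the libraries rescaled (adjusted p = 0.00291). For each FPKM of *betaTub56D* there were 0.475 and 0.401 of *betaTub60D* in wildtype against 0.0628 and 0.0745 in the mutant. With the unnamed *betaTub56D* transcripts counted, these were 0.168 and 0.141 in wildtype against 0.0207 and 0.0241 in the mutant. *betaTub60D* is known in *Drosophila* as a gene of muscle differentiation, and the *Act57B* actin of muscle rose in the same libraries.

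*betaTub85D* (3R, 5234105 to 5236004, minus strand), the testis beta chain, had 95.0 and 119 FPKM in wildtype against 10.1 and 12.1 in the HP1a mutant. The wildtype mean was 9.61 times that of the mutant, with 145 and 169 implied fragments left in the mutant libraries. The log2 fold change was -3.15 (SE 0.20, adjusted p = 0.00221), and -2.27 with the libraries rescaled (adjusted p = 0.00427). Among the beta-tubulin members its share went from 17.8% and 21.6% to 3.71% and 5.67%, and that of *betaTub60D* from 26.5% and 22.4% to 5.69% and 6.54%. With the unnamed transcripts of *betaTub56D* counted in, the share of *betaTub85D* was 8.80% and 10.6% in wildtype and 1.31% and 2.00% in the mutant. The direction of the shares was the same, and their size depends on which transcripts are named. With *betaTub97EF*, a beta-tubulin gene that is not a member, also in the sum (without the unnamed transcripts, an alternative chosen after the data were seen), *betaTub56D* held 53.0% and 53.5% in wildtype and 63.0% and 61.4% in the mutant, and *betaTub85D* 16.9% and 20.7% and then 2.58% and 3.96%.

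**Figure D4:**
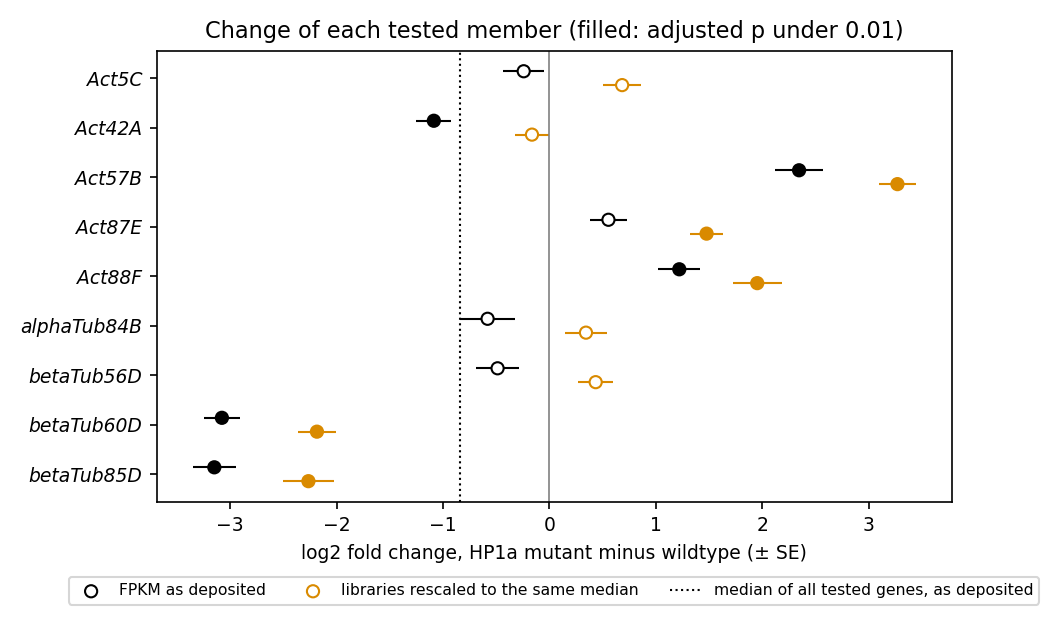
Log2 fold change (HP1a mutant minus wildtype, with its standard error) of the 9 members tested, in the FPKM as deposited (black) and after rescaling of the libraries (orange). Filled points passed at an adjusted p under 0.01, and the dotted line is the median of all tested genes, -0.84. *Act5C*, *alphaTub84B* and *betaTub56D* change sign between the scalings shown and pass under neither.

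In wildtype, the order of the named genes from high to low was *Act5C*, *alphaTub84B*, *Act57B*, *Act42A*, *betaTub56D*, *Act87E*, *betaTub60D*, *betaTub85D*, *Act88F* and *Act79B*, and the libraries of neighbours in this order did not overlap. In the HP1a mutant, *Act57B* and *Act5C* came first with libraries that overlapped (2321 to 3057 and 2072 to 2505). *Act42A* (208 to 231) and *betaTub56D* (188 to 246) also overlapped there. *Act87E* stood above *Act42A* in the mutant and below it in wildtype. The rank of *betaTub56D* turns on the transcripts counted, since with the unnamed ones (843 and 874 FPKM in wildtype, 748 and 580 in the mutant) it stood above *Act57B* and *Act42A* in wildtype, and in the mutant above *Act87E* and apart from *Act42A*.

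Lists of related genes, chosen with earlier results of these data known, give the surroundings of the members. Their counts stand beside the 34.4% lower and 6.98% higher among all tested genes and the median of -0.84. Counts with the libraries rescaled stand beside 945 lower and 1177 higher of 9438 tested genes and a median of -0.02. Of 20 other sarcomere genes, 14 could be tested, and 7 rose and 1 fell, with a median log2 fold change of 1.90 (2.73 with the libraries rescaled, where 9 rose and 0 fell). The most abundant were *Mlc2*, a myosin light chain (747 and 786 FPKM in wildtype, 3675 and 4201 in the mutant, log2 fold change 2.36), and *Tm1*, a tropomyosin of the thin filament (682 and 764, then 1897 and 2124, log2 fold change 1.48). The largest log2 fold change in the FPKM as deposited was that of *TpnC47D*, a troponin C, which rose from a mean of 15.3 FPKM to 253 and 148 (log2 fold change 3.63), close to the 3.62 of *Mlp60A*, a muscle LIM protein, which was the larger after rescaling. The 1 tested gene that fell was *tmod*, a protein that caps the pointed end of actin filaments, at -1.06. It had -0.15 and did not pass with the libraries rescaled. Of the untested genes, *Zasp66* (712 and 733 FPKM in wildtype, 364 and 341 in the mutant) and *TpnC41C* (2.17 and 3.08, then 0.730 and 0.379) also lay below wildtype. *Mhc*, *wupA*, *Prm* and *Mf* lay above it. *TpnC41C* was too low to test, and the other untested genes lacked status OK in some library. Summed over the 20 genes, the untested ones included, the list had 4991 and 5573 FPKM in wildtype against 18687 and 16851 in the mutant. No marker of it was at 0 in all libraries. Per FPKM of muscle actin this sum came to 6.98 and 6.86 in wildtype and to 5.43 and 6.36 in the mutant. The part of these markers in the rise of *Act57B* was not tested.

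Of 30 other testis genes, 24 could be tested, and 21 fell and 0 rose, with a median log2 fold change of -2.74 (12 fell with the libraries rescaled, median -2.02). All 24 were lower in the mutant. *Mst84Db*, a gene of sperm tail proteins, had 255 and 314 FPKM in wildtype against 23.4 and 25.4 in the mutant, a log2 fold change of -3.49, and *Mst87F* of the same family -3.39. The largest fall on the log2(FPKM + 1) scale was that of *Mst84Dc*, at -3.78, though some lower genes fell further by the ratio of means (24.9-fold for *schuy* against 14.4-fold for *Mst84Dc*). The list summed to 1399 and 1848 FPKM in wildtype and to 143 and 162 in the mutant. The second wildtype library was the higher for the list and for *betaTub85D*, and also in median FPKM per gene (8.93 against 8.21). The part of these markers in the fall of *betaTub85D* was not tested. Sex and larval age are not given, so a difference in either, fewer germ cells and less RNA per cell cannot be told apart.

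Of 8 other tubulin genes 5 were tested, and 2 fell and 1 rose, a number too small to set against the 34.4% lower of all tested genes. *betaTub97EF*, a further beta chain, rose from 27.2 and 24.7 FPKM to 119 and 92.1, with a log2 fold change of 1.97 (adjusted p = 0.00316). *gammaTub23C*, which nucleates microtubules at the centrosome, fell, with a log2 fold change of -1.79. *CG7794*, a tubulin-like gene, fell at -2.09, from 6.76 and 7.67 FPKM to 1.18 and 0.701. *alphaTub85E* had 15.1 and 14.1 FPKM in wildtype against 27.4 and 21.3 in the mutant, and did not pass unless the libraries were rescaled (log2 fold change 0.69, adjusted p = 0.0330, and 1.57 after rescaling). *alphaTub67C* and *gammaTub37C*, the maternal forms, did not exceed 0.263 FPKM.

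Of 14 microtubule partners, 12 were tested and 5 fell, *stai*, *Eb1*, *msps*, *Tbcb* and *Tbce*, with a list median of -0.77. This is near the 34.4% of all tested genes that passed as lower and their median of -0.84, so the count says nothing particular to the list. *stai* encodes stathmin, which binds tubulin dimers. It fell from 119 and 108 FPKM to 10.4 and 12.7, a log2 fold change of -3.20 (adjusted p = 0.00211), and of these 5 it was the only one that passed with the libraries rescaled (-2.31). *Eb1*, which binds the growing ends of microtubules, had a log2 fold change of -1.12, and -0.21 after rescaling.

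Of 19 actin regulators, 17 were tested. *cib*, a beta-thymosin that binds actin monomers, fell from 543 and 498 FPKM to 136 and 153 (log2 fold change -1.84, adjusted p = 0.00282), and did not pass with the libraries rescaled (-0.92, adjusted p = 0.0300). *Actn*, which passed under both scalings, encodes the alpha-actinin that also anchors thin filaments in muscle. It rose from 52.1 and 61.7 to 223 and 141 (log2 fold change 1.63, adjusted p = 0.00909). The others did not pass in the FPKM as deposited, among them *tsr*, the fly cofilin, with 751 and 762 FPKM in wildtype against 797 and 763 in the mutant. All 7 tested actin-related proteins had log2 fold changes below 0, as did the median gene, and only *Arp53D* passed. It fell from 20.7 and 22.1 FPKM to 2.45 and 2.75 (log2 fold change -2.64, limma adjusted p = 0.00215). *Arp1* and *Arp3*, the most abundant, had -0.34 and -0.06, and 0.58 and 0.85 with the libraries rescaled, where neither passed.

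The CCT chaperonin, which folds both actin and tubulin, has 8 subunits. None passed in limma (0 of 8 in the FPKM as deposited), and their log2 fold changes ran from -0.79 to -0.35 with a median of -0.62, which was 0.29 with the libraries rescaled. The most abundant, *CCT2* and *CCT5*, had -0.76 and -0.54. The subunits summed to 792 and 741 FPKM in wildtype, and to 705 and 355 in the mutant libraries, which differed from each other. Without HP1a mutant replicate 1, all 8 passed as lower, so that a single library decides this count.

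**Figure D5:**
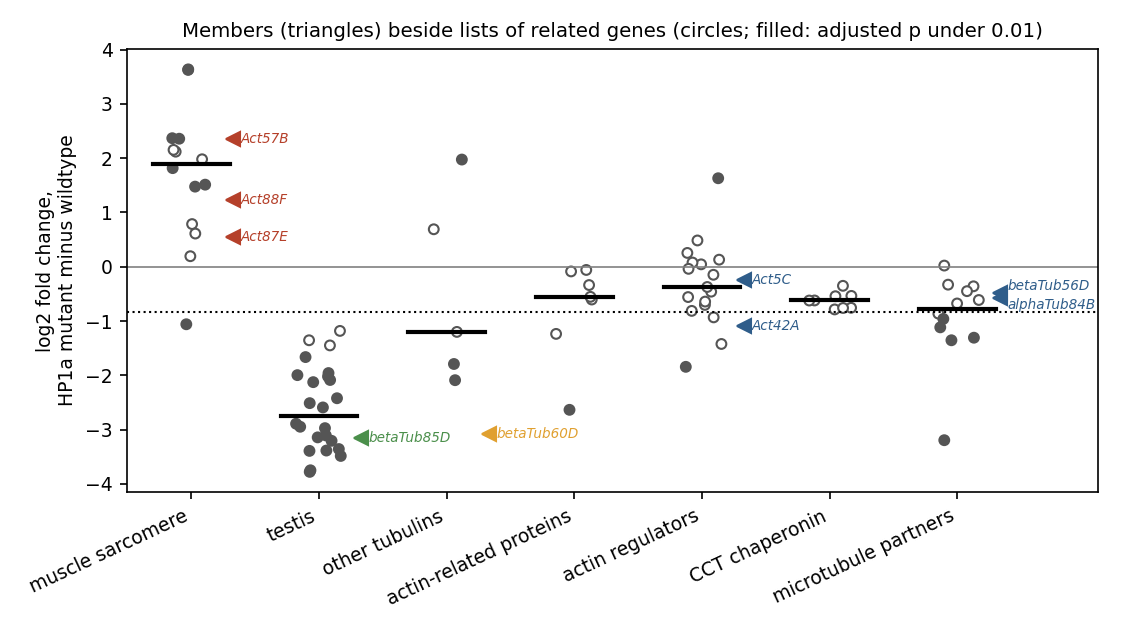
Log2 fold change (HP1a mutant minus wildtype) of the tested genes of 7 lists (circles, filled where the adjusted p was under 0.01, with a bar at the list median) and of the 9 tested members (triangles, set beside a list for comparison). The dotted line is the median of all tested genes, -0.84. *Act57B* at 2.35 lies above the median of the sarcomere genes, 1.90, and *betaTub85D* at -3.15 lies among the testis genes, whose median is -2.74.

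Markers of other tissues were set against the same 34.4% of tested genes called lower. Of the neural genes, 2 of 3 tested fell (*elav* and *Syt1*), while *Syx1A*, a syntaxin, had 7.17 and 10.9 FPKM in wildtype against 9.09 and 5.49 in the mutant. The untested *brp*, *nSyb*, *para* and *cac*, none above 4.64 FPKM, lay below wildtype without overlap, as did 69.1% of all tested genes. Of the hemocyte genes 1 of 5 fell (*Pxn*), and *Hml*, hemolectin, had -0.37 on the log2 scale (0.51 with the libraries rescaled). Of the imaginal disc genes 1 of 3 tested fell (*ap*), and *sd*, a partner of *vg*, had 24.1 and 24.4 FPKM in wildtype against 15.7 and 12.2 in the mutant. None of *elav*, *Syt1*, *Pxn* and *ap* passed with the libraries rescaled.

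The 4 imaginal disc genes that could not be tested, all regulators of disc patterning, were the ones furthest below wildtype. *vg* had 1.87 and 2.22 FPKM in wildtype against 0.0315 and 0.0979 in the mutant, and *Dll* 5.20 and 4.78 against 0.394 and 0.233. *en* had 3.48 and 3.94 against 0.281 and 0.389, and *hth* 11.3 and 18.2 against 1.71 and 1.26. The genotypes did not overlap for any of these 4, whose values were too low or, in a mutant library, not of status OK. When genes of any status were tested, 3 disc genes passed. Summed over 7 genes, the disc list had 65.9 and 76.2 FPKM in wildtype against 26.5 and 23.9 in the mutant, and its part in the values of the members was not tested.

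The 4 fat body genes moved in different directions. *Fbp1*, a gene that turns on late in the third instar, fell from 4333 and 4127 FPKM to 32.5 and 19.0, and *Lsp1alpha*, a storage protein, rose from 1088 and 853 to 5745 and 6949. *Lsp2*, also a storage protein, had 9321 and 7758 FPKM in wildtype against 2727 and 4433 in the mutant and did not pass (log2 fold change -1.29, adjusted p = 0.0208), and *Fbp2* had 3658 and 3537 against 3997 and 10224 and did not pass (0.83, adjusted p = 0.197). *betaTub60D* is known to respond to ecdysone in *Drosophila* cells. The part of larval age in these values was not tested.

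For 3 members, the genes with the most similar profile were found over the 4 libraries, by the Euclidean distance between centred log2(FPKM + 1). This is a description over 4 points that share 2 genotypes. For *Act57B* they were *Prx6c*, *Mlc1* and *CG17896*, at distances of 0.14 to 0.17. *Mlc1* is a myosin light chain, with 390 and 468 FPKM in wildtype against 2352 and 2074 in the mutant. For *betaTub85D* they were *S-Lap1*, *CG17470* and *CG3213*, at 0.032 to 0.046. *S-Lap1*, a leucyl aminopeptidase of sperm, had 136 and 174 FPKM in wildtype against 15.3 and 17.9 in the mutant. For *Act5C* they were *RpL19*, *CG6345* and *eIF1*, at 0.046 to 0.051. *RpL19*, a ribosomal protein gene, had 2774 and 2606 FPKM in wildtype against 2482 and 2059 in the mutant, and *eIF1* is a translation initiation factor. The member closest to *betaTub85D* was *betaTub60D*, which lay at 0.46 from *betaTub85D* as the gene of rank 220.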

How the data were processed

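Whole-larva RNA was measured in 4 libraries, 2 per genotype, described by the labels as biological duplicates. FPKM per RefSeq transcript were made by the authors and deposited with a 95% interval, a status and Release 5 coordinates. The submitters' processing notes name TopHat and Cufflinks, while their versions, the use of strand and the treatment of fragments that match several places were not given in the sources used here. No counts were used, so the count tools of the study could not be applied, and binding data are not analysed here.

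Transcripts were named from the RefSeq table of Release 6 (names only), which left 1249 of 22608 without a gene. FPKM were summed per gene, and log2(FPKM + 1) was tested with limma 3.58.1 in R 4.3.3 (variance trend, two-sided, Benjamini-Hochberg, FDR 0.01) on genes of status OK with a mean above 1.4. The fit was tested on simulated data. Implied fragments were computed from each interval, taken as FPKM plus or minus 2 Poisson standard errors, and cover counting error only. This reading does not hold for every gene, since *chic* had 186 and 3581 implied fragments at 345 and 378 FPKM in wildtype. The totals per library are therefore rough. Python 3.11.15, numpy 2.4.6, pandas 2.3.3, scipy 1.17.1 and matplotlib 3.10.9 were used.

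The members and lists were chosen with earlier results of these data known. Named genes are the members, *Su(var)205*, the 2 most abundant and the most changed called gene of each list, and the 3 nearest profiles of *Act5C*, *Act57B* and *betaTub85D*. Other genes were named after their values were seen. Alternatives were other pseudocounts, filters and scalings, no variance trend, a replicate block, and leaving out each library.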

Additional observations from a re-analysis of the deposited data

How the results depend on the processing

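The count of genes called in limma was 3904, and it was 2122 with the libraries rescaled to the same median, 1888 with quantile normalization and 2904 with the replicate block. Leaving out a library gave 0 to 4656 genes called and 0 to 6 members called, with 0 without either wildtype library. Rescaling turned *Act5C* (0.68), *alphaTub84B* (0.34) and *betaTub56D* (0.43) from lower to higher, none of them called. With quantile normalization they stayed lower (-0.19, -0.67 and -0.56), again with none called. With the replicate block 3 members were called, since *Act42A* (adjusted p = 0.0145) and *Act88F* (adjusted p = 0.0154) no longer passed in limma. Libraries of the same number share only that number, and the correlation of their deviations from the genotype means was 0.028 over 9438 genes. The mutant minus wildtype difference in the log2 ratio of muscle to cytoplasmic actin ran from 2.17 to 2.48 when a library was left out. The difference for *betaTub85D* to *betaTub56D* ran from -3.10 to -2.44, and that for *betaTub60D* to *betaTub56D* from -2.80 to -2.55. Adding the unnamed transcripts and counting list genes under each setting were chosen after seeing the data, and the former left 5 members called. Depth limits *Act79B*, which had 14 implied fragments at most, and *Act88F*, which was not tested with a mean FPKM above 5.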
